A study of Mus musculus with 11 samples.

Results

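Translation initiation and elongation factors, the proteins that bring ribosomes to messenger RNA and carry them along it, were followed in mouse islets treated with azoramide, a compound that is known to modulate the unfolded protein response. Members were all genes whose symbol begins with Eif or Eef and a digit, leaving out the kinases of eIF2 (Eif2ak), the eIF4E-binding proteins (Eif4ebp) and names that contain -ps. The rule uses no measured value and gave 63 of the 32285 genes in the count table, of which 61 passed the filter on low counts. The other 2 were Eif2c5, annotated as a lincRNA with no read in any library, and Eif4e1b, with 2 reads in 1 library.

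The libraries came from pancreatic islets of mice aged 16 weeks that had received a high-fat diet for 4 weeks, with islets of at least 3 mice in each sample. Islets of littermate controls or of mice labelled βZKO_Mip, which the labels describe as lacking Zzef1 in beta cells, were kept for 24 h with 10 µM azoramide or with DMSO, the solvent. The 4 groups were control islets with DMSO (3 libraries), control islets with azoramide (3), islets labelled knockout with DMSO (2) and islets labelled knockout with azoramide (3). The labels do not spell out Mip, and they do not say whether samples of 1 genotype share mice, so p-values measure the spread between these samples.

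Initiation begins when eIF2 delivers the initiator tRNA to the small ribosomal subunit, with eIF1, eIF1A, eIF3 and eIF5 on the same subunit. The eIF4 factors bind the cap of the mRNA and unwind its leader, and eIF5B then joins the large subunit. eEF1A brings each further aminoacyl-tRNA and eEF2 moves the ribosome by a codon; in beta cells, which make and secrete large amounts of insulin, phosphorylation of eIF2 is a known brake on this machinery under stress of the endoplasmic reticulum.

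Each library held between 16832800 and 19501813 counts, and 17687 to 17999 genes had at least 1 read. Zzef1, the targeted gene, was read in every library, at 85.4, 109.7 and 96.5 CPM (reads scaled to library size after TMM scaling) in control islets with DMSO, 79.4 and 83.5 CPM in islets labelled knockout with DMSO, 68.1, 64.3 and 67.4 CPM in control islets with azoramide, and 72.1, 77.7 and 68.7 CPM in islets labelled knockout with azoramide. The log2 difference between genotypes was -0.26 (SE 0.087) with DMSO and 0.13 (SE 0.079) with azoramide, with edgeR adjusted p of 0.999 and 0.968, so these libraries are called labelled knockout throughout. All 8 beta cell markers examined (among them Ins1, Ins2, Mafa and Pdx1) were read in every library, with a summed level of 139455 to 142235 CPM in control islets with DMSO and 151750 to 192478 CPM with azoramide, and 129783 to 132958 CPM against 140670 to 174535 CPM in islets labelled knockout. The sum hides opposite changes, since 3 of the 8 were called higher and 4 lower with azoramide in control islets, and 2 higher and 4 lower in islets labelled knockout. The 5 alpha cell markers summed to 14288 to 15819 CPM in control islets with DMSO and 24247 to 27628 CPM with azoramide, and to 14391 to 16386 CPM against 23523 to 25261 CPM in islets labelled knockout, with 2 and 4 of them called higher and none lower. The 6 macrophage markers summed to 38.3 to 48.5 CPM against 55.1 to 64.4 CPM in control islets and 39.9 to 40.4 CPM against 57.2 to 89.7 CPM in islets labelled knockout, with 1 and 2 called higher. Ppy, the marker of PP cells, read 1043 to 1764 CPM against 2015 to 2134 CPM, and 1349 to 1421 CPM against 1770.0 to 2132 CPM. Ppy was called higher in control islets only. The 5 endothelial markers went from 263 to 277 CPM to 208 to 263 CPM in control islets. In islets labelled knockout they went from 274 to 277 CPM to 207 to 238 CPM. Of these markers 2 were called lower in each genotype, and 1 was called higher in control islets. The 5 fibroblast and stellate cell markers went from 18.03 to 20.1 CPM to 12.2 to 16.9 CPM, and from 21.04 to 24.8 CPM to 11.4 to 19.3 CPM, with 2 and 1 called lower. Summed acinar markers overlapped between treatments in both genotypes. Delta markers lay higher with azoramide in control islets (1721 to 1910 against 2011 to 2300 CPM) and overlapped in islets labelled knockout. Ductal markers overlapped in control islets and lay higher in islets labelled knockout (1138 to 1152 against 1276 to 1522 CPM). Of single markers, 1 delta marker was called higher in each genotype and 1 ductal marker in control islets. None of the markers was at 0 in any library, and the part that cell type shares had in the results on translation factors was not tested. In whole islets, fewer cells of a type and less RNA per cell cannot be told apart. Library 2 of the control DMSO group and library 3 of the azoramide group labelled knockout stood apart from their groups on the second principal component; without both, the test called 39 members higher and 5 lower in control islets and 36 higher and 7 lower in islets labelled knockout, in place of the counts given next.

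Most translation factors rose with azoramide in both genotypes. In control islets 36 of the 61 tested members rose, 4 fell and 21 did not pass the test, where 19.3% of all 15093 tested genes rose and 19.8% fell (edgeR quasi-likelihood test, adjusted p below 0.05). In islets labelled knockout 37 rose, 6 fell and 18 did not pass, against 20.0% and 19.8% of all tested genes. The median log2 change of the members was 0.32 in control islets and 0.28 in islets labelled knockout, beside medians of -0.02 and -0.003 over all tested genes. Both comparisons called 32 members higher, and the 4 members that fell in control islets, Eif4g1, Eif4g3, Eef2k and Eef1aknmt, also fell in islets labelled knockout.

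Read library by library, 38 members had every azoramide library above every DMSO library in control islets and 6 had every one below, against 23.8% and 24.6% of all tested genes. In islets labelled knockout, with 2 DMSO libraries, 44 lay wholly above and 13 wholly below, against 30.2% and 31.4%. The members together took 1.31 to 1.36% of all counts in the DMSO libraries and 1.46 to 1.54% in the azoramide libraries. Their summed level was 12756 ± 465 CPM (SD, n = 3) in control islets with DMSO and 15923 ± 173 CPM (SD, n = 3) with azoramide. Islets labelled knockout gave 12545 ± 106 CPM (SD, n = 2) and 15461 ± 178 CPM (SD, n = 3), so the treatments did not overlap in either genotype.

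Scaling by plain library totals in place of TMM, which trims the most extreme genes before scaling, moved the median of all genes to -0.19 in control islets and -0.16 in islets labelled knockout. The members then split into 28 higher and 11 lower in control islets and 23 higher and 12 lower in islets labelled knockout, with member medians of 0.15 and 0.13, beside 10.8% higher and 32.8% lower, and 12.4% and 30.1%, over all genes. A correction for gene length and base composition (the length/GC correction) was the other alternative that moved many members, and values under both are given beside each gene whose call they change. Of the members, 22 rose in both comparisons and Eif4g3 fell in both under all 19 alternatives run for each.

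**Figure D1:**
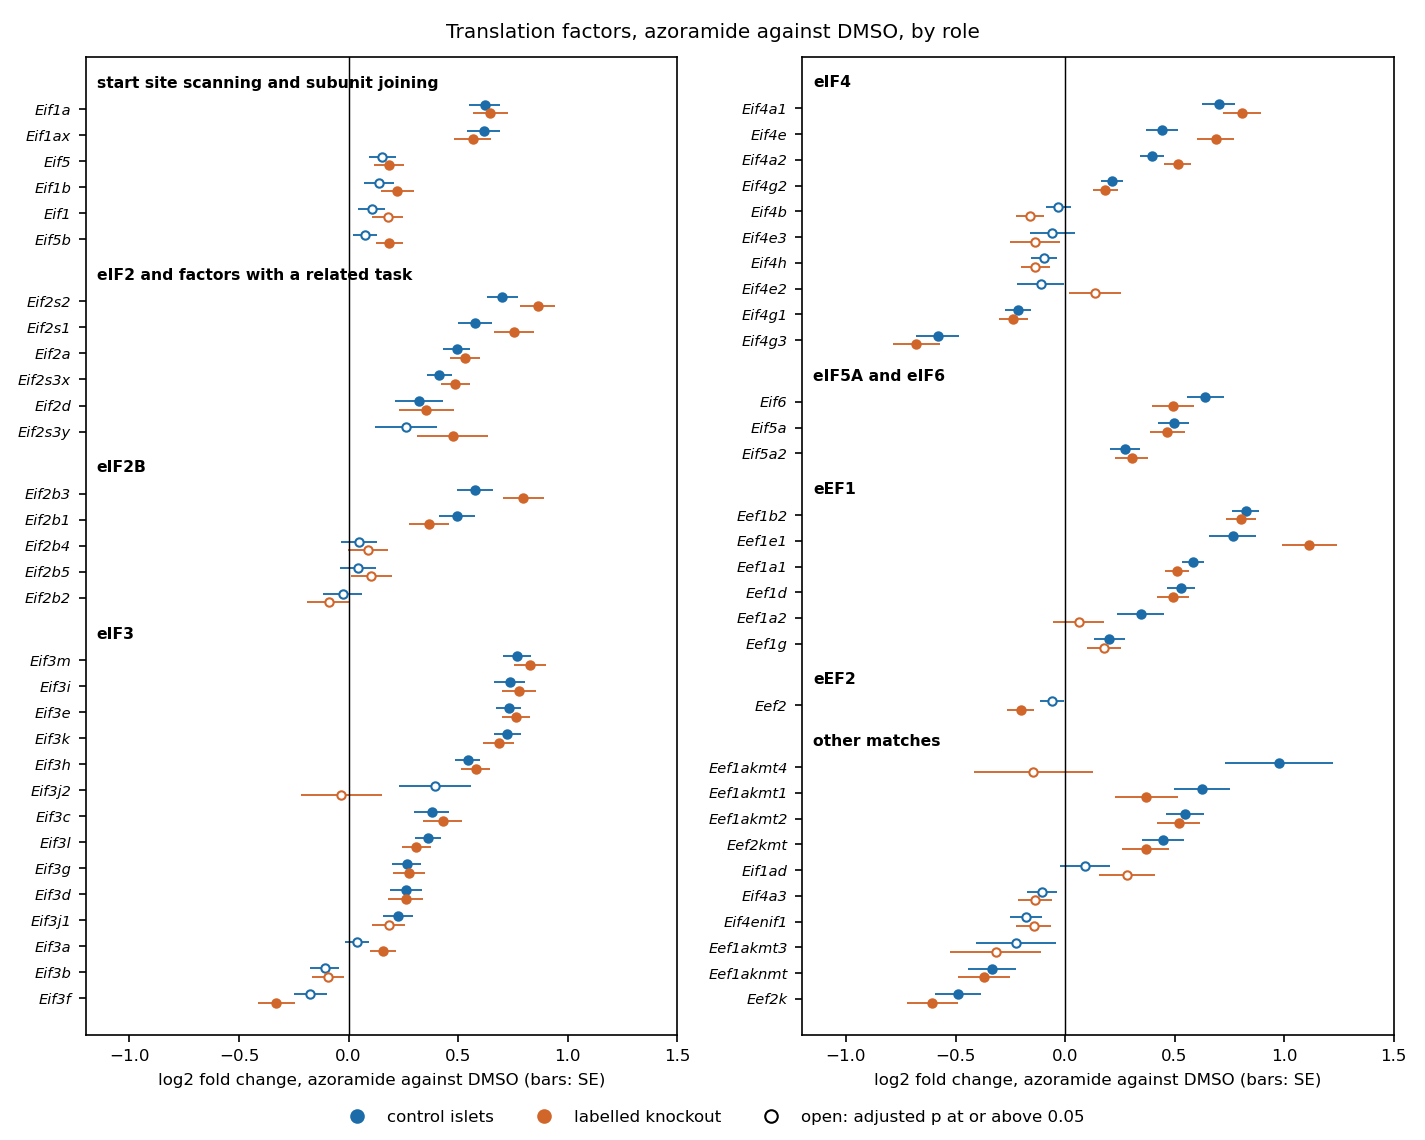
Log2 fold change of all 61 tested translation factors, azoramide against DMSO, grouped by role, with control islets in blue and islets labelled knockout in orange. Bars are standard errors and open points did not pass the test; most points lie right of 0, with Eif4g3 and Eef2k the lowest filled points in both genotypes.

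The factors of scanning and subunit joining split by gene. Eif1a and Eif1ax, which encode near-identical copies of eIF1A, a factor that holds the scanning ribosome open, rose in both genotypes. Eif1a read 81.5, 89.0 and 78.7 CPM in control islets with DMSO and 135, 119.7 and 129 CPM with azoramide, and 81.1 and 81.9 CPM against 122, 141 and 119.8 CPM in islets labelled knockout. The groups did not overlap, with log2 changes of 0.62 (SE 0.071, adjusted p = 3.48e-06) and 0.65 (SE 0.080, adjusted p = 9.21e-06). Eif1ax read 35.2, 40.2 and 38.8 CPM and 57.2, 59.3 and 58.6 CPM in control islets, and 40.7 and 36.4 CPM and 60.2, 58.2 and 52.9 CPM in islets labelled knockout. Its changes were 0.62 (SE 0.075, adjusted p = 7.19e-06) and 0.57 (SE 0.085, adjusted p = 5.22e-05), close in size to those of its copy; reads from such copies may have been divided between them in counting.

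Eif5, whose product triggers GTP hydrolysis by eIF2 at the start codon, read 501, 548 and 476 CPM in control islets with DMSO and 580.0, 554 and 563 CPM with azoramide. The azoramide libraries all lay above the DMSO libraries, but the change of 0.15 (SE 0.062, adjusted p = 0.0571) did not pass. In islets labelled knockout Eif5 read 514 and 529.9 CPM and 579, 567 and 634 CPM, with a change of 0.18 (SE 0.069, adjusted p = 0.0431), which the test called by a small margin. Eif1b and Eif5b, the joining factor, also passed in islets labelled knockout only, at 0.22 and 0.19 against 0.14 and 0.076 in control islets. Eif1, which guards the choice of start codon, had changes of 0.11 and 0.18 (adjusted p = 0.197 and 0.0503). In all, 2 of 6 rose in control islets (19.3% of all genes) and 5 of 6 in islets labelled knockout (20.0% of all genes), with none lower. With plain library totals Eif1b, Eif5 and Eif5b in islets labelled knockout were 0.067, 0.027 and 0.031, none called. With the length/GC correction Eif1b was called lower in control islets, at -0.24 (adjusted p = 0.0263), and had -0.14 in islets labelled knockout, and Eif5 had 0.074 and 0.043. In control islets Eif5 was called without DMSO library 2, at 0.21 (adjusted p = 0.00675). Among islets labelled knockout, Eif1b, Eif5 and Eif5b lost the call without DMSO library 1 (log2 changes of 0.18, 0.16 and 0.20), without DMSO library 2 (0.27, 0.21 and 0.17) or without azoramide library 1 (0.20, 0.20 and 0.17), Eif1b and Eif5 without azoramide library 3 (0.20 and 0.13), and Eif5b without azoramide library 2 (0.18); Eif5 also lost it without control DMSO library 1 or any 1 control azoramide library (0.18 each).

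All 3 subunits of eIF2 rose, where 19.3% of all genes rose in control islets and 20.0% in islets labelled knockout. Eif2s1 encodes the alpha subunit, the one phosphorylated by the stress kinases, and read 51.8, 55.8 and 46.3 CPM in control islets with DMSO and 76.5, 70.7 and 82.4 CPM with azoramide. Islets labelled knockout gave 49.0 and 47.8 CPM and 84.0, 86.2 and 74.7 CPM, again with no overlap. The changes were 0.58 (SE 0.079, adjusted p = 2.28e-05) and 0.75 (SE 0.090, adjusted p = 6.05e-06). Eif2s2, the beta subunit, read 237, 251 and 204 CPM against 396, 367 and 364 CPM in control islets, and 212 and 210.2 CPM against 387, 400.1 and 364 CPM in islets labelled knockout. Its changes of 0.70 (SE 0.071, adjusted p = 8.79e-07) and 0.86 (SE 0.081, adjusted p = 5.36e-07) were the largest of this group.

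The gamma subunit has a copy on the X and a copy on the Y chromosome. Eif2s3x, the X copy, rose by 0.41 and 0.49 (adjusted p = 2.69e-05 and 1.84e-05). Eif2s3y, the Y copy, read 72.6, 91.7 and 85.3 CPM and 93.7, 93.2 and 113 CPM in control islets, where every azoramide library lay above the DMSO libraries yet the change of 0.26 (SE 0.14, adjusted p = 0.185) did not pass. Islets labelled knockout read 72.8 and 91.4 CPM and 133, 96.5 and 113 CPM, with a change of 0.48 (SE 0.16, adjusted p = 0.041); without azoramide library 1, which was the highest, the change was 0.35 (adjusted p = 0.0874). The call also ended without azoramide library 3 (0.49, adjusted p = 0.086) and without DMSO library 1 (0.32, adjusted p = 0.243), and, at 0.48, without control DMSO library 2 or 3 or control azoramide library 2. Plain library totals gave 0.32 (adjusted p = 0.125) and the length/GC correction 0.075 (adjusted p = 0.805); the replicate block (adjusted p = 0.167) and the fit with no filter on low counts (0.0898) also ended the call.

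Eif2a and Eif2d encode single proteins that can also bring initiator tRNA to the ribosome and are not subunits of eIF2. Eif2a read 69.3, 69.5 and 63.7 CPM and 100.1, 90.4 and 94.8 CPM in control islets, and 66.2 and 66.8 CPM and 98.3, 99.1 and 91.0 CPM in islets labelled knockout, with changes of 0.49 (SE 0.062, adjusted p = 8.98e-06) and 0.53 (SE 0.070, adjusted p = 1.5e-05). Eif2d had 0.32 (SE 0.11, adjusted p = 0.0291) and 0.36 (SE 0.12, adjusted p = 0.0313), calls that 1 library could end: without control azoramide library 1 or 3 the control change was 0.29 or 0.26, without control DMSO library 1 or 3 it was 0.28 or 0.27, and in islets labelled knockout it was 0.32, 0.29 or 0.25 without azoramide library 1, azoramide library 2 or DMSO library 1. With plain library totals Eif2d had 0.15 and 0.20, neither called, and with the length/GC correction 0.56 and 0.60, both called.

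eIF2B recharges eIF2 with GTP and is the enzyme that phosphorylated eIF2 blocks. Of its 5 subunits 2 rose in each genotype, Eif2b3 and Eif2b1, where 19.3% and 20.0% of all genes rose. The other 3 did not pass in either. Eif2b3, the gamma subunit, read 22.2, 24.8 and 20.97 CPM in control islets with DMSO and 33.7, 33.0 and 34.8 CPM with azoramide, and 21.2 and 20.6 CPM and 35.6, 37.9 and 35.4 CPM in islets labelled knockout. The changes were 0.58 (SE 0.082, adjusted p = 3.22e-05) and 0.80 (SE 0.093, adjusted p = 4.96e-06). Eif2b1, the alpha subunit, read 23.9, 23.7 and 23.7 CPM and 31.9, 33.8 and 34.9 CPM in control islets, and 23.5 and 22.4 CPM and 30.9, 30.7 and 27.1 CPM in islets labelled knockout.

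Eif2b1 thus separated the treatments in both genotypes, with changes of 0.50 (SE 0.081, adjusted p = 0.000121) and 0.37 (SE 0.091, adjusted p = 0.00398); the second was 0.33 (adjusted p = 0.0528) without DMSO library 2, 0.21 (adjusted p = 0.0927) with plain library totals and 0.19 (adjusted p = 0.122) with the length/GC correction. Eif2b5 encodes the catalytic epsilon subunit and read 50.8, 42.7 and 46.2 CPM with DMSO and 47.2, 53.0 and 43.8 CPM with azoramide in control islets, and 46.5 and 43.9 CPM and 50.6, 47.8 and 47.4 CPM in islets labelled knockout. Control libraries of both treatments overlapped, and the changes were 0.044 (SE 0.082, adjusted p = 0.715) and 0.10 (SE 0.092, adjusted p = 0.398). Eif2b4, the delta subunit, read 26.4, 26.7 and 24.2 CPM and 27.4, 25.2 and 27.2 CPM in control islets, and 25.6 and 26.3 CPM and 26.3, 28.9 and 27.7 CPM in islets labelled knockout, with changes of 0.048 and 0.090. Eif2b2, the beta subunit, had -0.026 and -0.090 (adjusted p = 0.844 and 0.504).

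eIF3, the largest initiation factor, is a scaffold on the small subunit. Of its 14 tested genes 10 were called higher and none lower in control islets, beside 19.3% and 19.8% of all genes. In islets labelled knockout 10 were higher and 1 lower, beside 20.0% and 19.8%. The median log2 changes were 0.37 and 0.29. The 9 that rose in both were Eif3c, Eif3d, Eif3e, Eif3g, Eif3h, Eif3i, Eif3k, Eif3l and Eif3m. RefSeq promoter windows of 300 bases around a gene's start were found for 49 of the 63 members and 10 of the 14 eIF3 genes. The run CCGGAAG, or CTTCCGG on the other strand, which is a core of binding sites of ETS factors, stood in 5 of these 10. They were Eif3c, Eif3d, Eif3g, Eif3l and Eif3m, all of which rose in both genotypes. Eif3k also rose in both, and its window lacked the run. Windows of Eif3a and Eif3f, which did not rise in both, lacked it too. For the 5 genes with the run, the 120 bases before the RefSeq start (GRCm38.p6) are printed on the gene's own strand. Capitals show where the run stands in this set of subunits.

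Eif3c (chr7:126566367-126566486, minus strand): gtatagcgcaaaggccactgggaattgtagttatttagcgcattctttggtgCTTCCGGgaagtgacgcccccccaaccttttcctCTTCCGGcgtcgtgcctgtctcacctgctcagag
Eif3d (chr15:77970825-77970944, minus strand): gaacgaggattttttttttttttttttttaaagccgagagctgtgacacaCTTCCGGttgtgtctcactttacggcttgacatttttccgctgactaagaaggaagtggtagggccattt
Eif3g (chr9:20898591-20898710, minus strand): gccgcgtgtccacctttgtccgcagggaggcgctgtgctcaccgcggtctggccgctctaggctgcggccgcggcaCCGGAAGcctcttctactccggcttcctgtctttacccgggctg
Eif3l (chr15:79075103-79075222, plus strand): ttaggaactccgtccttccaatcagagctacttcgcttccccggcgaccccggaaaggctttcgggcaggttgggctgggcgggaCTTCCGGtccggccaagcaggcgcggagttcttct
Eif3m (chr2:105017028-105017147, minus strand): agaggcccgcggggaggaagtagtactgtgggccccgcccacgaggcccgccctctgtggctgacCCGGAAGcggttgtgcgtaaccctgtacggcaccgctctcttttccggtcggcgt
The run begins 68 and 34 bases before the start in Eif3c, 70 bases in Eif3d, 44 bases in Eif3g, 35 bases in Eif3l and 55 bases in Eif3m. It was found in 15 of the 49 matched members, which is 18 of their 63 windows (28.6%), and in 8.86% of all 32851 windows; windows of 1 gene can overlap. Of the matched members that rose in both genotypes 9 of 23 had it, and of those that fell in both 0 of 4. The run also stood at Eif1ad, Eif1b, Eif2b2, Eif2b4, Eif4e2 and Eif4enif1, which neither rose in both nor fell in both. Shares over all genes were counted by window and not by gene. A match is a run of letters and no measure of binding, and a window without it says nothing of other sites.

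Eif3m read 75.9, 71.5 and 67.5 CPM in control islets with DMSO and 129, 115 and 122 CPM with azoramide, and 67.7 and 63.6 CPM against 122, 115 and 112 CPM in islets labelled knockout. Its changes were 0.77 (SE 0.064, adjusted p = 1.08e-07) and 0.83 (SE 0.073, adjusted p = 2.95e-07). Eif3e, which has a part of its own in bridging eIF3 to the eIF4 factors, read 106, 102 and 101 CPM and 175, 165 and 173 CPM in control islets, and 99.8 and 97.5 CPM and 167, 175 and 161 CPM in islets labelled knockout. No azoramide library came near the DMSO range for either gene, and the changes of Eif3e were 0.73 (SE 0.056, adjusted p = 3.6e-08) and 0.76 (SE 0.063, adjusted p = 1.58e-07).

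Eif3k, a subunit at the edge of the complex, read 51.8, 56.3 and 53.3 CPM and 86.2, 89.6 and 90.8 CPM in control islets, and 51.1 and 52.7 CPM and 89.6, 81.8 and 79.1 CPM in islets labelled knockout, with changes of 0.72 (SE 0.063, adjusted p = 1.59e-07) and 0.69 (SE 0.071, adjusted p = 1.44e-06). Eif3i rose by 0.73 and 0.78, Eif3h by 0.54 and 0.58, Eif3c by 0.38 and 0.43, and Eif3l by 0.36 and 0.31, in control islets and islets labelled knockout in turn. The smaller calls were Eif3d at 0.26 and 0.26, Eif3g at 0.26 and 0.28, and Eif3j1 at 0.22 and 0.18, the last passing in control islets only. Eif3j1 was not called without control DMSO library 3 (0.17) or control azoramide library 2 (0.20), Eif3d in islets labelled knockout not without azoramide library 2 (0.24) or DMSO library 1 (0.20), and Eif3g not without DMSO library 2 (0.26). With plain library totals none of these calls held: Eif3d had 0.095 and 0.10, Eif3g 0.099 and 0.12, and Eif3j1 0.058 in control islets, and Eif3l in islets labelled knockout had 0.15 (adjusted p = 0.0749). The length/GC correction gave 0.15 and 0.13 for Eif3g and Eif3j1 in control islets, not called, while Eif3d had 0.39 and 0.40, both called. Eif3d shares 2151 exonic bases with the antisense gene Gm17638 and Eif3j1 shares 1107 with Spg11 on the other strand, and the strand setting of the counting is not given in the sources used here.

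Eif3a, Eif3b and Eif3f did not rise in control islets. Eif3a, which holds the core of the complex together, read 461, 448 and 427 CPM and 461, 455 and 456 CPM in control islets, with overlap and a change of 0.038 (SE 0.053, adjusted p = 0.609). Islets labelled knockout gave 432 and 417 CPM and 455, 486 and 477 CPM; the change of 0.16 (SE 0.060, adjusted p = 0.0464) turned to -0.0006 with plain library totals and was not called without DMSO library 1 (0.18, adjusted p = 0.115) or 2 (0.13, adjusted p = 0.275), azoramide library 2 (0.14) or 3 (0.15), or, at 0.15 to 0.16, without control DMSO library 1 or any 1 control azoramide library. Eif3b had -0.11 and -0.094 and did not pass in either, but was called lower with plain library totals, at -0.28 and -0.25. Eif3f, a core subunit with a fold of the deubiquitinase family, read 89.0, 81.3 and 80.3 CPM and 68.9, 78.0 and 75.1 CPM in control islets, where the azoramide libraries lay lower but the change of -0.17 (SE 0.077, adjusted p = 0.0832) did not pass. It was called lower there with plain library totals (-0.34, adjusted p = 0.00187), with the length/GC correction (-0.30, adjusted p = 0.0099) and without labelled knockout azoramide library 3 (-0.17, adjusted p = 0.0368). Eif3f fell by 0.33 in islets labelled knockout, from 86.0 and 89.9 CPM to 67.5, 63.6 and 78.8 CPM (SE 0.085, adjusted p = 0.00486), and by 0.30 (adjusted p = 0.0631) without DMSO library 2. Eif3j2, at 5.10 to 8.16 CPM over the libraries, had 0.40 and -0.033 and did not pass. Without control DMSO library 3 it was called higher in control islets, at 0.49 (adjusted p = 0.046), and with the length/GC correction it had -0.12 there and was called lower in islets labelled knockout, at -0.61 (adjusted p = 0.021).

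Levels of the subunits were compared per kilobase of exonic sequence, counted over all annotated transcripts of a gene. That length can differ from the length of the mRNA in these islets. The mean over the 11 libraries was highest for Eif3c, at 179.7 CPM per kb, followed by Eif3h at 82.4 and Eif3a at 51.8. Eif3e, at 20.6, Eif3j1, at 14.6, and Eif3j2, at 2.66 CPM per kb, were the lowest. This order depends on the length used: Eif3e had 138 CPM over 6719 bases and Eif3h 133 CPM over 1612 bases. The ratio of Eif3e to Eif3f per kb was 0.511, 0.540 and 0.544 in control islets with DMSO and 1.09, 0.911 and 0.990 with azoramide, and 0.499 and 0.467 against 1.06, 1.18 and 0.880 in islets labelled knockout. Every azoramide library thus had a higher ratio than any DMSO library. That had to be so, since Eif3e lay wholly higher and Eif3f wholly lower with azoramide, and Eif3f was picked for its values. The ratio adds no evidence of its own. A ratio within a library does not depend on its scaling, but these ratios had no length/GC correction. Eif3e has 6719 exonic bases and 36.2% GC, and Eif3f 2891 bases and 49.8% GC.

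**Figure D2:**
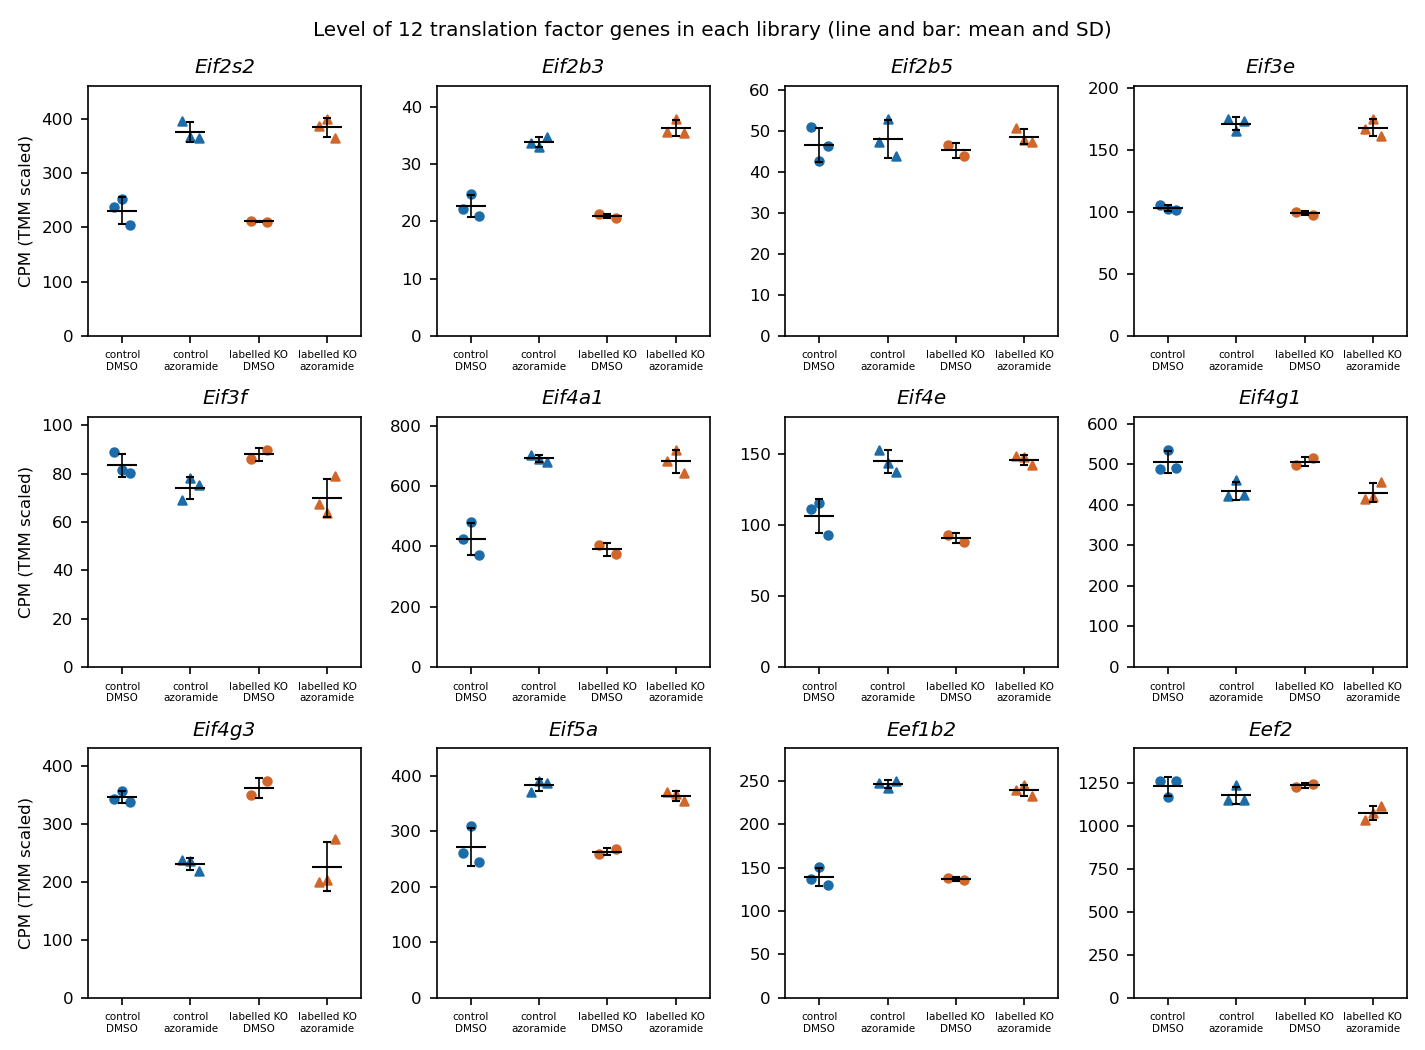
Level of 12 translation factor genes in every library, in CPM after TMM scaling, with circles for DMSO and triangles for azoramide, control islets in blue and islets labelled knockout in orange. Lines and bars are means and SDs over 2 or 3 libraries; Eif2s2, Eif2b3, Eif3e, Eif4a1, Eif4e, Eif5a and Eef1b2 lie higher with azoramide in both genotypes, Eif4g1 and Eif4g3 lower, and Eif2b5 shows little separation.

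The eIF4 factors, which handle the mRNA, moved in both directions. Of 10 tested, 4 rose and 2 fell, in each genotype: Eif4a1, Eif4a2, Eif4e and Eif4g2 were higher, and Eif4g1 and Eif4g3 lower. The lower share is near that of all genes, of which 19.8% were called lower in each genotype. The higher share stands beside 19.3% of all genes for control islets and 20.0% for islets labelled knockout. The E-box CACGTG, a palindrome bound by factors of the Myc and MiT families among others, stood in the RefSeq windows of Eif4e, which rose, and of Eif4g1, which fell, and in that of Eef2. It was found in 14 of the 49 matched members, 16 of their 63 windows (25.4%), against 7.15% of all 32851 windows. Among matched members 5 of the 23 that rose in both genotypes and 3 of the 4 that fell in both had it. The others with it were Eef1akmt4, Eef2, Eif1b, Eif3a, Eif3f and Eif4h, which neither rose in both nor fell in both. Eif1b, Eif5a and Eif5a2 had both this run and the ETS core. The 120 bases before the start of Eif4e, Eif4g1 and Eef2 (GRCm38.p6, RefSeq, for Eif4e the second of 2 starts) show the same run, in capitals, at genes that moved in different directions.

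Eif4e (chr3:138527148-138527267, plus strand): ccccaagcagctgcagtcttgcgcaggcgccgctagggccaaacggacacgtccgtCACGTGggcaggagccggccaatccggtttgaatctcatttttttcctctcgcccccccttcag
Eif4g1 (chr16:20672607-20672726, plus strand): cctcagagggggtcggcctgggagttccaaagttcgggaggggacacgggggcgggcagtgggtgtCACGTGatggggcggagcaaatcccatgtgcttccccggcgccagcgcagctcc
Eef2 (chr10:81176511-81176630, plus strand): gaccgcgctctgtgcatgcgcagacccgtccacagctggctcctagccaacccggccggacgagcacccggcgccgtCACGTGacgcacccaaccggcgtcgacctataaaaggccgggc
The E-box begins 64 bases before the start in Eif4e, 54 bases in Eif4g1 and 43 bases in Eef2. Eif4e encodes the protein that binds the cap, and read 111, 115 and 93.0 CPM in control islets with DMSO and 153, 144 and 137 CPM with azoramide, and 93.1 and 88.3 CPM against 148, 148 and 142 CPM in islets labelled knockout. The groups did not overlap, with changes of 0.44 (SE 0.073, adjusted p = 0.000124) and 0.69 (SE 0.083, adjusted p = 6.84e-06).

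Eif4a1 and Eif4a2 encode the helicase of the complex in 2 closely related forms. Eif4a1 read 423, 479.9 and 373 CPM and 702, 691 and 681 CPM in control islets, and 405 and 375 CPM and 682, 721 and 645 CPM in islets labelled knockout, with changes of 0.70 (SE 0.076, adjusted p = 2.09e-06) and 0.81 (SE 0.086, adjusted p = 2.26e-06). Eif4a2 read 392, 373 and 374 CPM and 517, 482 and 498 CPM, and 356 and 349 CPM and 476, 522 and 511 CPM, with changes of 0.39 (SE 0.055, adjusted p = 2.68e-05) and 0.51 (SE 0.062, adjusted p = 7.22e-06). Both rose in each genotype, Eif4a1 with the larger estimate. Both genes host small RNAs within their bounds, whose reads cannot be told apart from theirs here.

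Eif4g1, the main scaffold that joins the cap-binding protein to the helicase and to eIF3, read 489, 537 and 490.5 CPM in control islets with DMSO and 421, 461 and 424 CPM with azoramide. Islets labelled knockout gave 499 and 515 CPM and 415, 419 and 457 CPM. All azoramide libraries lay below the DMSO libraries, with changes of -0.22 (SE 0.061, adjusted p = 0.00906) and -0.24 (SE 0.067, adjusted p = 0.0099), but the length/GC correction turned them to 0.10 (adjusted p = 0.2) and 0.12 (adjusted p = 0.178). The calls also ended without control azoramide library 1 (-0.18, adjusted p = 0.0594) and, in islets labelled knockout, without DMSO library 2 (-0.21, adjusted p = 0.101).

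Eif4g3, a related scaffold named here after its values were seen, read 343, 357 and 337 CPM in control islets with DMSO and 238, 236 and 219 CPM with azoramide, and 349 and 374 CPM against 199.8, 204 and 274 CPM in islets labelled knockout. Its changes of -0.58 (SE 0.10, adjusted p = 0.000408) and -0.68 (SE 0.11, adjusted p = 0.000252) were the largest falls among the members in each genotype. The library labelled knockout at 274 CPM was azoramide library 3, and without it the change was -0.84 and still called; with the length/GC correction the changes were -0.25 (adjusted p = 0.0397) and -0.34 (adjusted p = 0.0133). Eif4g2, a scaffold that lacks the site for the cap-binding protein, rose by 0.22 (adjusted p = 0.00263) and 0.18 (adjusted p = 0.0154), and with plain library totals had 0.047 and 0.028, neither called; in islets labelled knockout the call also ended without DMSO library 1 (0.18) or 2 (0.19). The helicase partners Eif4b and Eif4h did not pass, at -0.030 and -0.10 in control islets and -0.16 and -0.14 in islets labelled knockout, nor did the further cap-binding genes Eif4e2, at -0.11 and 0.14, and Eif4e3, at -0.058 and -0.14. With the length/GC correction Eif4e3 was called lower in both, at -0.40 (adjusted p = 0.0129) and -0.51 (adjusted p = 0.00531), and with plain library totals in islets labelled knockout, at -0.29 (adjusted p = 0.0494). Eif4b and Eif4h were called lower with plain library totals, at -0.20 and -0.32 for Eif4b and -0.26 and -0.29 for Eif4h, whereas the length/GC correction called Eif4h higher, at 0.19 and 0.20. Eif4b in islets labelled knockout was also called without azoramide library 3 (-0.19) and without control DMSO library 2 or 3 (-0.16 each).

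The ratio of Eif4a1 to Eif4g1 per kb was 1.46, 1.51 and 1.28 in control islets with DMSO and 2.81, 2.53 and 2.703 with azoramide. Islets labelled knockout gave 1.37 and 1.23 against 2.77, 2.90 and 2.37. The ratio of Eif4e to Eif4g1 per kb was 0.276, 0.261 and 0.230 against 0.442, 0.380 and 0.393 in control islets, and 0.227 and 0.209 against 0.434, 0.428 and 0.377 in islets labelled knockout. Both ratios separated the treatments in every library. This had to be so, since Eif4a1 and Eif4e lay wholly higher and Eif4g1 wholly lower with azoramide. The ratios had no length/GC correction, under which the fall of Eif4g1 did not hold.

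eIF5A eases the ribosome past difficult peptide bonds and carries hypusine, an amino acid made by Dhps and Dohh; eIF6 keeps free large subunits from joining too early. All 3 genes rose in both genotypes, where 19.3% and 20.0% of all genes rose. Eif5a read 260.2, 309.6 and 245 CPM in control islets with DMSO and 371, 391 and 387 CPM with azoramide, and 259 and 268 CPM and 372, 366 and 355 CPM in islets labelled knockout, with changes of 0.50 (SE 0.071, adjusted p = 3.67e-05) and 0.47 (SE 0.080, adjusted p = 0.000196). Eif5a2, its less expressed copy, read 39.5, 36.5 and 38.2 CPM and 45.9, 45.0 and 47.0 CPM, and 38.7 and 39.6 CPM and 46.0, 49.5 and 49.8 CPM. The changes of Eif5a2 were 0.27 (SE 0.068, adjusted p = 0.00399) and 0.30 (SE 0.076, adjusted p = 0.00387), and with the length/GC correction 0.042 and 0.0057, and with plain library totals 0.10 and 0.15, none called. Eif6 read 51.6, 66.9 and 56.4 CPM and 90.6, 96.3 and 86.0 CPM in control islets, and 58.1 and 55.7 CPM and 84.0, 83.1 and 73.3 CPM in islets labelled knockout. Its changes were 0.64 (SE 0.085, adjusted p = 1.91e-05) and 0.49 (SE 0.10, adjusted p = 0.000608), with no overlap between treatments.

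Of the 6 eEF1 genes, 6 rose in control islets and 4 in islets labelled knockout, where Eef1a2 and Eef1g did not pass. Over all genes 19.3% and 20.0% rose. Eef1a1, the GTPase that delivers aminoacyl-tRNA, was the most abundant member, with a mean of 3846 CPM over the libraries. It read 3132, 3168 and 3018 CPM in control islets with DMSO and 4717, 4600.0 and 4635 CPM with azoramide, and 3014 and 3053 CPM and 4277, 4443 and 4249 CPM in islets labelled knockout. The changes were 0.58 (SE 0.050, adjusted p = 1.49e-07) and 0.51 (SE 0.056, adjusted p = 2.94e-06). Eef1a1 alone made up 24.4 ± 0.30% (SD, n = 3) of the members' summed level in control islets with DMSO and 29.2 ± 0.32% (SD, n = 3) with azoramide, and 24.2 ± 0.013% (SD, n = 2) and 28.0 ± 0.56% (SD, n = 3) in islets labelled knockout. Without it the summed level still differed, at 9651 ± 388 CPM (SD, n = 3) against 11272 ± 147 CPM (SD, n = 3) in control islets, with no overlap between libraries.

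Eef1b2, the nucleotide exchange subunit that reloads eEF1A with GTP, read 136, 150.5 and 130.4 CPM in control islets with DMSO and 247, 242 and 250.03 CPM with azoramide, and 139 and 135 CPM against 239, 245 and 232 CPM in islets labelled knockout. Its changes were 0.82 (SE 0.060, adjusted p = 2.14e-08) and 0.80 (SE 0.068, adjusted p = 2e-07), a wide gap between treatments in both. Eef1d, the second exchange subunit, read 63.5, 71.4 and 65.8 CPM and 96.9, 97.5 and 95.1 CPM, and 69.3 and 65.7 CPM and 97.8, 100.03 and 87.1 CPM, with changes of 0.53 (SE 0.065, adjusted p = 7.91e-06) and 0.49 (SE 0.073, adjusted p = 5.02e-05). Eef1g, the structural subunit, had a smaller change of 0.20 (SE 0.070, adjusted p = 0.0298) in control islets and 0.18 (SE 0.079, adjusted p = 0.084) in islets labelled knockout. The first was not called without control azoramide library 1 (0.19) or 2 (0.19), or without control DMSO library 1 (0.18) or 3 (0.14), and it had 0.035 (adjusted p = 0.71) with plain library totals and 0.082 (adjusted p = 0.425) with the length/GC correction. The second was called without control DMSO library 2 (0.18, adjusted p = 0.024).

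Eef1e1 encodes a small protein of the complex of aminoacyl-tRNA synthetases. It read 15.4, 17.4 and 13.8 CPM in control islets with DMSO and 27.5, 27.0 and 24.9 CPM with azoramide, and 10.5 and 12.5 CPM and 24.0, 27.5 and 23.2 CPM in islets labelled knockout, with changes of 0.77 (SE 0.11, adjusted p = 2.8e-05) and 1.12 (SE 0.12, adjusted p = 3.35e-06). Eef1a2, the form of eEF1A known from neurons and muscle, read 24.9, 24.8 and 26.1 CPM and 29.5, 38.4 and 28.3 CPM in control islets, and 24.1 and 27.9 CPM and 27.1, 28.1 and 26.2 CPM in islets labelled knockout, where treatments overlapped. The changes were 0.34 (SE 0.11, adjusted p = 0.015) and 0.062 (SE 0.12, adjusted p = 0.716), and the first was 0.20 (adjusted p = 0.118) without control azoramide library 2, which was the highest, and 0.18 (adjusted p = 0.225) with plain library totals.

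Eef2, the translocase, did not rise. It read 1265, 1167 and 1261 CPM in control islets with DMSO and 1153, 1236 and 1150.1 CPM with azoramide, which overlapped, with a change of -0.061 (SE 0.055, adjusted p = 0.415). The libraries labelled knockout separated, at 1228 and 1246 CPM and 1036, 1075 and 1115 CPM, and Eef2 fell by 0.20 (SE 0.061, adjusted p = 0.0142). That call ended without azoramide library 1 (-0.18, adjusted p = 0.0596), DMSO library 1 (-0.21, adjusted p = 0.0752) or DMSO library 2 (-0.19, adjusted p = 0.115), and the length/GC correction gave 0.0096. With plain library totals Eef2 was lower in control islets as well, at -0.23 (adjusted p = 0.00508).

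The other matches to the rule are enzymes that modify elongation factors and a few RNA-binding proteins. Eef2k, the kinase that inactivates eEF2, read 19.3, 16.79 and 20.5 CPM in control islets with DMSO and 13.3, 13.8 and 13.2 CPM with azoramide, and 19.2 and 20.2 CPM against 11.8, 12.9 and 14.2 CPM in islets labelled knockout. It fell in both, with changes of -0.49 (SE 0.11, adjusted p = 0.00139) and -0.61 (SE 0.12, adjusted p = 0.000507), and the length/GC correction gave -0.27 (adjusted p = 0.064) for control islets. Eef2kmt, which methylates eEF2, rose by 0.45 and 0.37 (adjusted p = 0.00147 and 0.0121), the second not called without azoramide library 2 (0.29) or DMSO library 1 (0.30), or with plain library totals (0.21).

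Methyltransferases of eEF1A went both ways. Eef1akmt1 read 8.46, 8.67 and 6.99 CPM and 12.4, 12.3 and 12.6 CPM in control islets, and 8.37 and 7.91 CPM and 10.9, 9.56 and 11.1 CPM in islets labelled knockout. Its changes were 0.62 (SE 0.13, adjusted p = 0.000823) and 0.37 (SE 0.14, adjusted p = 0.0478); the second was not called without DMSO library 1 (0.41, adjusted p = 0.12), DMSO library 2 (0.33, adjusted p = 0.224), azoramide library 1 (0.34, adjusted p = 0.112) or azoramide library 3 (0.33, adjusted p = 0.107), nor, at 0.37, without control DMSO library 1 or any 1 control azoramide library. Eef1akmt2 read 19.8, 22.5 and 19.97 CPM and 31.8, 28.0 and 31.2 CPM, and 19.2 and 19.99 CPM and 28.3, 26.7 and 29.3 CPM, with changes of 0.55 (SE 0.087, adjusted p = 9.82e-05) and 0.52 (SE 0.10, adjusted p = 0.000458). In islets labelled knockout plain library totals gave 0.21 for Eef1akmt1, not called. With the length/GC correction Eef1akmt1 had 0.13 and -0.15 and Eef1akmt2 -0.025 and -0.11, none called. Eef1aknmt, which methylates eEF1A at another site, fell by 0.33 and 0.37 (adjusted p = 0.0227 and 0.0209), and had -0.016 and -0.035 with the same correction. Its call ended in control islets without azoramide library 2 (-0.33) or 3 (-0.27) or DMSO library 3 (-0.31), and in islets labelled knockout without azoramide library 3 (-0.34) or DMSO library 2 (-0.20).

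Eef1akmt4, the member with the fewest reads among those tested, read 1.61, 2.13 and 1.83 CPM and 4.17, 3.23 and 3.61 CPM in control islets, and 2.31 and 3.07 CPM and 2.41, 2.78 and 2.11 CPM in islets labelled knockout. It rose in control islets, by 0.98 (SE 0.25, adjusted p = 0.00434), and had -0.14 (SE 0.27, adjusted p = 0.71) in islets labelled knockout. Its control change was 0.66 with the length/GC correction (adjusted p = 0.0589). The gene shares exonic bases with Gm49333 on the same strand, so its reads are uncertain. Eef1akmt3, Eif4a3 of the exon junction complex, Eif4enif1, which carries eIF4E into the nucleus, and Eif1ad did not pass in either genotype. Eif4a3 was nonetheless called lower in both with plain library totals (-0.27 and -0.29) and with the length/GC correction (-0.25 each). Eif4enif1 was called lower with plain library totals (-0.35 and -0.30) and, in control islets, without azoramide library 1 (-0.23). Eif1ad moved from 0.090 to 0.29 (adjusted p = 0.00641) in control islets without DMSO library 2, and in islets labelled knockout its 0.28 was called without control DMSO library 2 (adjusted p = 0.00568) or 3 (adjusted p = 0.0381). Of these 10 genes, 4 were called higher and 2 lower in control islets, beside 19.3% and 19.8% of all genes. In islets labelled knockout 3 were higher and 2 lower, beside 20.0% and 19.8%.

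Genotype was compared at each treatment. With DMSO no member passed the test between islets labelled knockout and control islets, where 0.0% of all tested genes did, and DESeq2 called none; 2 of 61 members had an unadjusted p below 0.05, against 3.52% of all genes. With azoramide the count was also 0 against 0.0% by edgeR and 0 by DESeq2, and 7 had an unadjusted p below 0.05, against 5.0% of all genes. The 7 became 2 with plain library totals, against 6.16% of all genes, and 3 with the length/GC correction, against 4.26%. The members of smallest p with DMSO were Eef1e1, at -0.44 (SE 0.13, 95% interval -0.70 to -0.17, adjusted p = 0.999), Eif4e, at -0.23 (interval -0.40 to -0.058), and Eef1akmt4, at 0.53 (interval -0.048 to 1.11). With azoramide they were Eif3j2, at -0.43 (SE 0.16, 95% interval -0.78 to -0.088, adjusted p = 0.958), Eef1akmt4, at -0.59 (interval -1.10 to -0.082), and Eef2, at -0.13 (interval -0.25 to -0.017). None of these passed the test.

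The interaction asked whether the azoramide effect differed between genotypes. It called 0 members, against 0.0% of all genes by edgeR, and 0 by DESeq2, with 3 members at an unadjusted p below 0.05 against 3.73% of all genes. The smallest p-values were those of Eef1akmt4, at -1.12 (SE 0.36, 95% interval -1.89 to -0.35, adjusted p = 0.999), Eif4e, at 0.24 (interval 0.013 to 0.47), and Eef1e1, at 0.35 (interval 0.005 to 0.69). The 5 members higher only in islets labelled knockout, the 4 higher only in control islets and the 2 lower only in islets labelled knockout therefore were not shown to differ in their response.

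Changes with azoramide went with gene length and GC content over all genes. The median change in control islets was 0.24 in the shortest of 4 equal classes of exonic length and 0.039, -0.10 and -0.19 in the classes above it. The members in the same classes numbered 20, 15, 14 and 12 and had medians of 0.37, 0.38, 0.42 and 0.057. In the shortest 3 classes 12, 9 and 11 members rose and none fell. There 30.6%, 21.6% and 14.9% of all genes rose and 3.13%, 13.4% and 25.3% fell. In the longest class 4 members rose and 4 fell, beside 9.97% and 37.3% of all genes. For islets labelled knockout the medians over all genes were 0.24, 0.051, -0.089 and -0.15 and those of the members 0.20, 0.43, 0.50 and 0.17. Pearson's r between change and log2 exonic length was -0.30 over 15084 genes and -0.29 over the 61 members in control islets. In islets labelled knockout these values were -0.26 and -0.092. With GC content in place of length, r was -0.27 over all genes and -0.37 over the members in control islets. In islets labelled knockout it was -0.30 and -0.49. These correlations are across genes measured in the same libraries, which are not independent replicates. The members' median exonic length was 3639 bases, against 4271 over all tested genes. With the length/GC correction control islets had 30 members higher and 5 lower (13.1% and 9.65% of all genes), and islets labelled knockout had 31 higher and 6 lower (13.6% and 10.9%).

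**Figure D3:**
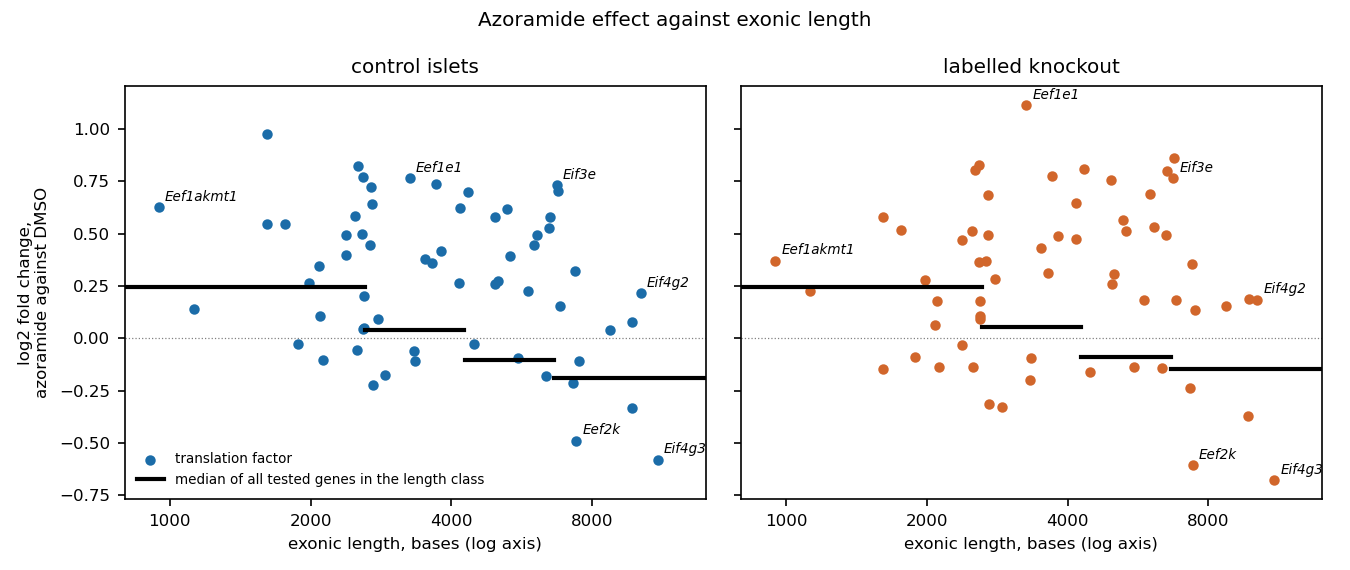
Log2 fold change with azoramide against exonic length (log axis) for the 61 tested translation factors, in control islets (left) and islets labelled knockout (right). Black lines are medians of all tested genes in 4 classes of exonic length, which fall from 0.24 in the shortest to -0.19 (control islets) and -0.15 (labelled knockout) in the longest class, while members such as Eif3e lie far above the line of their class.

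Genes that regulate or complete translation were read in lists of their own. Regulators, from kinases of eIF2 to the enzymes that modify eIF5A and eEF2, were mixed. In control islets 6 rose and 10 fell of 25 (median -0.055), against 19.3% and 19.8% of all genes. In islets labelled knockout 7 rose and 7 fell (median 0.012), against 20.0% and 19.8%. Larp1, which represses mRNAs of ribosomal proteins and translation factors, fell, at -0.50 (SE 0.069, adjusted p = 2.13e-05) and -0.61 (SE 0.076, adjusted p = 8.99e-06). Eif4ebp2, an inhibitor of eIF4E, also fell, at -0.49 (SE 0.075, adjusted p = 6.02e-05) and -0.69 (SE 0.082, adjusted p = 5.69e-06). Eif2ak3, the eIF2 kinase PERK of the endoplasmic reticulum, was lower at -0.36 (SE 0.056, adjusted p = 8.35e-05) and -0.26 (SE 0.062, adjusted p = 0.00263). Some further regulators are named here after their values were seen. The eIF2 kinases did not move together: Eif2ak2 rose by 0.34 and 0.38, and Eif2ak4 had -0.23 (called) and 0.044 (not called). Eif2ak1 was called in neither genotype. Mtor, a kinase that promotes translation, had -0.39 and -0.47 and its partner Rptor -0.41 and -0.32, all 4 values called lower. Eif4ebp1, another inhibitor of eIF4E, rose by 0.43 and 0.58, and Dohh, which completes hypusine on eIF5A, by 0.44 and 0.43. Among control libraries, plain library totals gave 3 regulators higher and 13 lower, beside 10.8% and 32.8% of all genes. The length/GC correction gave 3 higher and 4 lower, beside 13.1% and 9.65%. Values of the single named regulators under these alternatives are not given here, so their falls may not all hold.

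Of the factors of termination and recycling 5 of 9 were called higher and none lower in control islets (median 0.30), beside 19.3% and 19.8% of all genes, and 5 higher and 1 lower in islets labelled knockout (median 0.29), beside 20.0% and 19.8%. With the length/GC correction 3 were higher and 1 lower, and 3 higher and 2 lower, with medians of 0.034 and -0.050. Over all genes 13.1% were then higher and 9.65% lower, and 13.6% and 10.9%. Denr, which helps recycle the small subunit, rose by 0.52 and 0.66, Abce1, which splits the ribosome, by 0.49 and 0.56, and Etf1, the release factor that reads stop codons, by 0.39 and 0.42. Of the poly(A)-binding proteins and their partners 1 of 6 was called higher and 1 lower in control islets, shares near those of all genes (19.3% and 19.8%). In islets labelled knockout 2 were higher and 1 lower, beside 20.0% and 19.8% of all genes. Paip2, an inhibitor of poly(A)-binding protein, rose by 0.37 and 0.42, its relative Paip2b had 0.17 (not called) and 0.35 (called), and Pabpn1, the nuclear protein, was called lower in both, at -0.17 and -0.24. Mitochondrial translation factors gave 2 of 10 higher and none lower in each genotype, where the higher share is near that of all genes (19.3% and 20.0%). Mtrf1 rose by 0.62 and 0.44, Mtif3 had 0.28 (called) and 0.15 (not called), and Mrrf 0.18 (not called) and 0.34 (called). The selenocysteine factors had 1 call, Secisbp2 lower in control islets at -0.33, where 19.8% of all genes were lower. Eefsec at 0.003 and -0.20 was not called.

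The cytosolic ribosomal proteins are the partners of these factors. All 82 that were tested of 85 in the list rose in control islets and 81 in islets labelled knockout, beside 19.3% and 20.0% of all genes. The medians of these ribosomal proteins, 0.87 and 0.84, lay above those of the translation factors. Rps27l and Rps29, which were among those with the smallest p-values, rose by 1.11 and 0.995 in control islets. After the length/GC correction 79 and 77 of the 82 rose, with medians of 0.57 and 0.53, beside 13.1% and 13.6% of all genes.

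**Figure D4:**
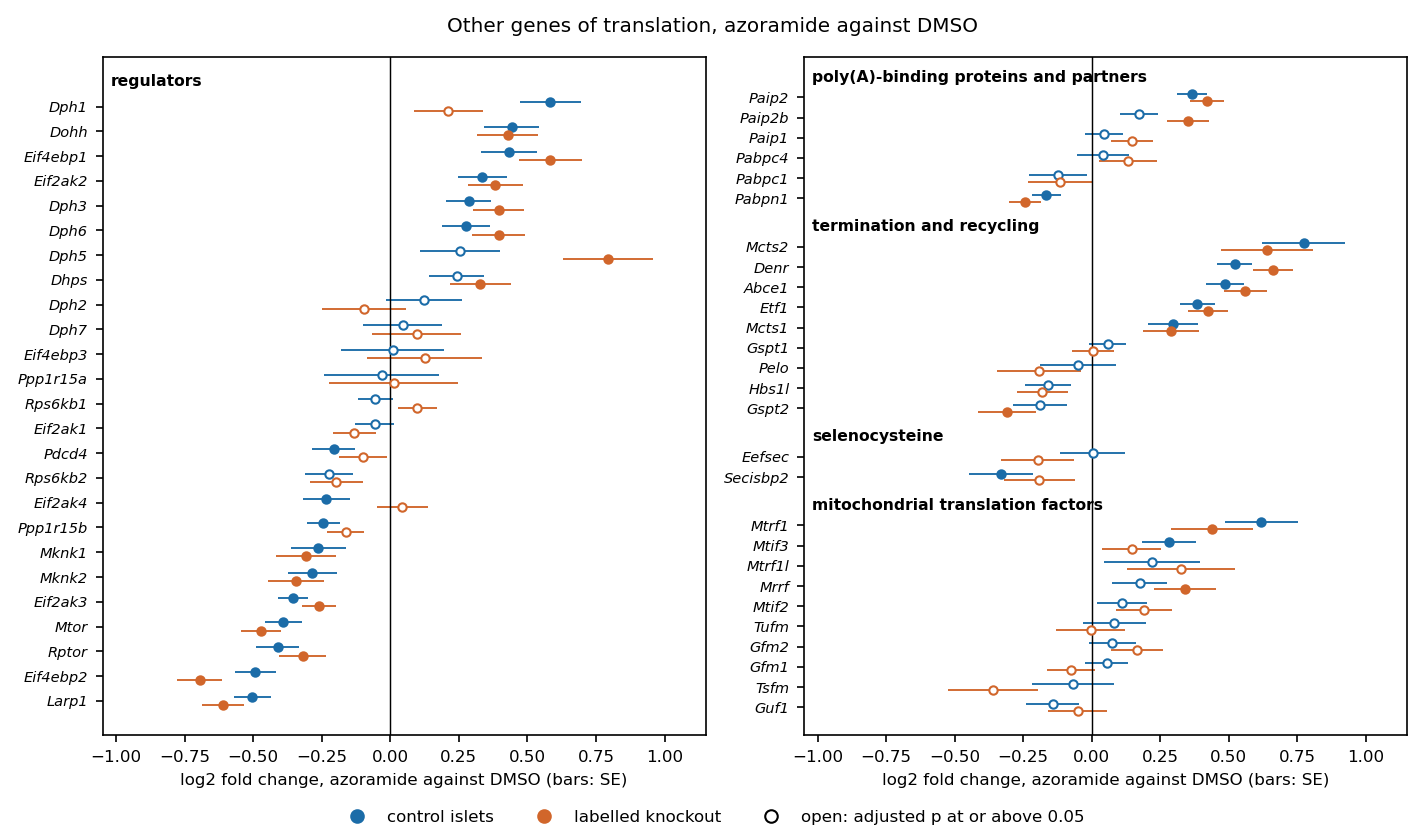
Log2 fold change, azoramide against DMSO, of regulators (left) and of other factors of translation (right), with control islets in blue, islets labelled knockout in orange, standard errors as bars and open points for values that did not pass the test. Regulators spread to both sides, with Larp1 and Eif4ebp2 lowest, and Denr, Abce1 and Etf1 lie right of 0 in both genotypes.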

How the data were processed

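RNA was sequenced from mouse islets in 11 libraries of 4 groups, taken from the sample titles. The authors deposited 1 table of whole-number gene counts, not normalized, with a column for each library; the submitters' processing notes list STAR 2.7.2a, the build mm10 and, with no role, DESeq2. Not given in the sources used here are the counting tool, the annotation and the strand, and reads of overlapping genes and near-identical copies may be misassigned. No library pair within a group agreed within sampling noise (chi-square per degree of freedom 5.43 to 23.5).

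Counts were analysed in R 4.3.3 with the quasi-likelihood test of edgeR 4.0.16 (robust, TMM scaling, filter on low counts by group) in 1 fit of all 4 groups with a common estimate of spread, because 1 group has only 2 libraries. Genes were called at an adjusted p below 0.05 after Benjamini-Hochberg adjustment across all 15093 tested genes; changes are log2 values with SE, the change over the square root of F, and levels are CPM after TMM scaling. Exonic length, GC content and overlaps came from GENCODE for GRCm38, the assembly of mm10, and promoter windows from RefSeq for GRCm38.p6. The length/GC correction fitted each library's deviation from the gene's mean log2 level on splines of length and GC content with 5 degrees of freedom each. Alternatives were DESeq2 1.42.0 size factors, its Wald test, plain library totals, no filter on low counts, the length/GC correction, only the groups compared, a block for the replicate number, leaving out each library, and leaving out the 2 libraries that stood apart. The scripts were tested on simulated data.

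The members, roles and lists were chosen with earlier results of these data known, so nothing here is independent support for them. Levels in every library are given for a listed set of members of every role whatever their result, and for the 3 members of each role with the smallest p in control islets; Eif3f, Eif4g3, Eef1e1 and Eef1akmt4 were added for their values or for the genotype comparisons, where the 3 of smallest p are named. A further gene that the naming rule picks among the ribosomal proteins is not reported here.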

Additional observations from a re-analysis of the deposited data

How the results depend on the processing

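Counts of members called in both azoramide comparisons stayed within 1.5 times under every alternative for the total, and differed more by direction. With plain library totals 11 members were called lower in control islets, and 23 higher and 12 lower in islets labelled knockout. Without 1 library at a time, control islets gave 36 to 42 calls, 33 to 38 higher and 3 to 5 lower; islets labelled knockout gave 31 to 47 calls, 27 to 40 higher and 2 to 7 lower, the lowest being 2 without labelled knockout DMSO library 2, where the lone DMSO library is assumed to vary like the other groups. The genotype comparisons and the interaction called 0 members under every alternative run.

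The length/GC correction turned 10 single values that were called in one of the fits. In control islets they became -0.0248 for Eef1akmt2, -0.2387 for Eif1b (now called lower), 0.1011 for Eif4g1 and 0.1909 for Eif4h (now called higher, where plain library totals called it lower at -0.2641). In islets labelled knockout they became -0.1452 for Eef1akmt1, -0.1098 for Eef1akmt2, 0.0096 for Eef2, -0.1438 for Eif1b, 0.1164 for Eif4g1 and 0.2019 for Eif4h (now called higher, against -0.2918 with plain library totals, called lower). Plain library totals turned Eif3a in islets labelled knockout to -0.0006. A further 40 values called in neither fit changed sign, over 25 pairs of gene and comparison. The cause was not tested.

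The replicate numbers were not taken as pairs, since the labels do not say that a number marks shared mice. Same-numbered libraries of a genotype do share a name apart from a letter for treatment, so pairing is possible. Same-numbered control libraries correlated at 0.19, 0.27 and 0.05 in their deviations from the group means over 10006 genes. Control libraries of unlike number correlated at -0.24 to 0.15. Each control azoramide library correlated most with the DMSO library of its own number. Same-numbered libraries labelled knockout had 0.15 and -0.42. With only 2 DMSO libraries there, the deviations are exact opposites, so these 2 values cannot decide on pairing. With the replicate number as a block within genotype, control islets had 37 members higher and 4 lower and islets labelled knockout 31 higher and 5 lower, where only 2 numbers are shared; the block gave 0 calls for genotype and interaction. At this depth Eef1akmt4, with a mean of 2.66 CPM, is the member limited most by counting error.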

Other observations

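Several factors exist as pairs of related genes. Their balance was read per kilobase of exonic sequence in each library, with no length/GC correction. The annotated length sets the size of a ratio, so that size is no firm measure of balance, but it does not alter the order of the libraries. The ratio of Eif4a1 to Eif4a2 was 1.33, 1.59 and 1.23 in control islets with DMSO and 1.67, 1.77 and 1.68 with azoramide. Islets labelled knockout gave 1.403 and 1.32 against 1.76, 1.70 and 1.55. The azoramide libraries thus lay higher within each genotype. Eif5a over Eif5a2 was 13.9, 17.9 and 13.6 against 17.1, 18.4 and 17.4 in control islets, which overlapped, and 14.2 and 14.3 against 17.1, 15.7 and 15.1 in islets labelled knockout, which did not.

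Eef1a1 over Eef1a2 ranged from 91.3 to 107 in the DMSO libraries and from 100.2 to 137 in the azoramide libraries; the lowest azoramide value was that of control azoramide library 2, in which Eef1a2 was highest. Eef2 over Eef2k, the translocase and the kinase that inactivates it, was 137 to 155 in the DMSO libraries and 175 to 200.04 in the azoramide libraries, with no overlap. Eif2s3x over Eif2s3y ran from 1.63 to 2.43 over all libraries and did not separate the treatments. All libraries held Eif2s3y reads, while Xist, which marks cells with an inactive X chromosome, was at 0.278 to 1.25 CPM.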
